A study of Mus musculus with 36 samples.

Results

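The core pluripotency factors described here are 9 genes that mark or maintain the undifferentiated state of mouse embryonic stem cells: Pou5f1 (Oct4), Nanog, Sox2, Zfp42 (Rex1), Sall4, Utf1, Dppa4, Dppa2 and Foxd3. They were taken by symbol, and all 9 of 9 were found in each of the 6 deposited tables, among 37561 gene entries. The study deleted the long noncoding RNA LncCPR in AB2.2 cells, a mouse embryonic stem cell line, and followed the loss of LIF-supported self-renewal in embryoid bodies. AB2.2 cells served as controls. The deletion was made with Cas9 and a pair of guide RNAs on either side of the gene, after which single cells were sorted, genotyped and expanded. Both lines were grown in serum with LIF at day 0 and then as hanging drops without LIF, and RNA came from undifferentiated cells at day 0 and from whole embryoid bodies at days 3, 5, 8, 10 and 12. Each of the 12 groups had 3 libraries, 36 in all. How many sorted lines stand behind the knockout libraries is not stated, so a difference between the lines cannot be told apart from a difference between clones.

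Oct4, Sox2 and Nanog are DNA-binding factors that occupy many of the same regulatory regions in embryonic stem cells, often at a composite site where an octamer lies beside a Sox element, and they activate one another's genes as well as their own. LIF supports this circuit through Stat3. When it is withdrawn, markers of the naive state, as found in the inner cell mass, are lost first, while Oct4 and Sall4 are kept for longer in the epiblast-like cells from which mesoderm, endoderm and ectoderm arise. Heart muscle in an embryoid body forms from cells that have passed through the epiblast-like and mesodermal stages.

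The upstream sequences of 5 members are shown because they differ in the letters bound by these factors. Windows of RefSeq on GRCm38.p6 were at hand for 6 of the 9 members, in 8 windows. Sall4, Dppa4 and Dppa2 had none. Each line gives the 250 bases before a transcription start, 5′ to 3′ on the gene's strand. Capitals mark a match on either strand to the octamer letters ATGCAAA, to the Sox letters CATTGT, or to the joined site, which is the Sox letters, any 1 base, and then the octamer letters, and so contains both shorter motifs.
Nanog, chr6:122707315-122707564, plus strand: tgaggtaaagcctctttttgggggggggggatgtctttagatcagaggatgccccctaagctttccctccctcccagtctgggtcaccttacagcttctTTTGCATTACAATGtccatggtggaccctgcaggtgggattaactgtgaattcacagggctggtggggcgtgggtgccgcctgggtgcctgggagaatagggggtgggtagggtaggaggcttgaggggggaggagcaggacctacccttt
Sox2, chr3:34649745-34649994, plus strand: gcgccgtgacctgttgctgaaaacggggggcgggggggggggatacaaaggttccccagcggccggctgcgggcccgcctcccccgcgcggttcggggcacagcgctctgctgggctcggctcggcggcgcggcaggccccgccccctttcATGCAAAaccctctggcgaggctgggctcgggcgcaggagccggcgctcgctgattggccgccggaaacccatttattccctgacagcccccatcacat
Zfp42, chr8:43307010-43307259, minus strand: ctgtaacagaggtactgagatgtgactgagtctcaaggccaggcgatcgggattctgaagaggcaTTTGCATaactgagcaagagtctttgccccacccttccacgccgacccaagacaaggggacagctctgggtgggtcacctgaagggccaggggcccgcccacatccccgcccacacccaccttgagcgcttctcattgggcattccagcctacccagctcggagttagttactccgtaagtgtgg
Pou5f1, chr17:35505782-35506031, plus strand: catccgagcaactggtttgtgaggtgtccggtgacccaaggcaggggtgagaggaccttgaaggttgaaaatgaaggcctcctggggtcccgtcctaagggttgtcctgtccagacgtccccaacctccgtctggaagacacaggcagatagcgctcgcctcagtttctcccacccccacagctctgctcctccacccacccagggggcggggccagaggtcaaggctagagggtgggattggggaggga
Foxd3, chr4:99656049-99656298, plus strand: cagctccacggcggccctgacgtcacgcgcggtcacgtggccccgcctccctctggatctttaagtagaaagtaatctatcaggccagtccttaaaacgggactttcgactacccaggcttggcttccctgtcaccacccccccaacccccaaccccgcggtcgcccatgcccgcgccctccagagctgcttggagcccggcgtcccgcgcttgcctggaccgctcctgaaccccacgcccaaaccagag
The joined letters lay in the Nanog sequence, and 2 of 32851 mouse windows held them, both of them Nanog's own. The octamer letters alone lay in the Sox2 and Zfp42 sequences and in 4.12% of all windows, and the Sox letters in 10.7% of all windows. The sequences of Pou5f1 and Foxd3 printed here, and that of Utf1, held neither motif, while a second Pou5f1 window held the Sox letters. A match is a description of letters, and the binding of these factors was not measured.

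The tables give FPKM, fragments scaled by the length of the transcript and the size of the library, with no read counts. FPKM sums ranged from 294740 to 403675 per library. The steps between low values gave relative depths from 0.559 to 1.84, an estimate that rests on as few as 10 genes in 1 library. Nothing in the labels says that the 3 libraries of a group came from separate cultures, so the tests measure the spread between these libraries, which may be technical. No entry carries the name of the deleted RNA, so the deletion itself was not checked here. The level of a gene in whole embryoid bodies cannot tell fewer cells with the transcript from less of it per cell.

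No member was listed at 0 in any of the 36 libraries. In control cells at day 0, Pou5f1 had the highest level of the 9, at 505 ± 13.7 FPKM (SD, n = 3), followed by Zfp42 at 416 ± 7.27 and Nanog at 276 ± 3.36. These 3 were separate from one another, with no overlap of libraries. Sox2 stood at 156 ± 5.78 FPKM and Sall4 at 67.8 ± 5.62. Dppa4, Dppa2 and Utf1 lay between 25.7 and 31.0 FPKM, each overlapping its neighbour in the order, and Foxd3 was lowest at 7.36 ± 0.841. The order was the same in knockout cells down to Sall4 and for Utf1 and Foxd3 at its end, with Dppa2 at 40.0 ± 3.52 FPKM above Dppa4 at 32.3 ± 1.12.

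**Figure D1:**
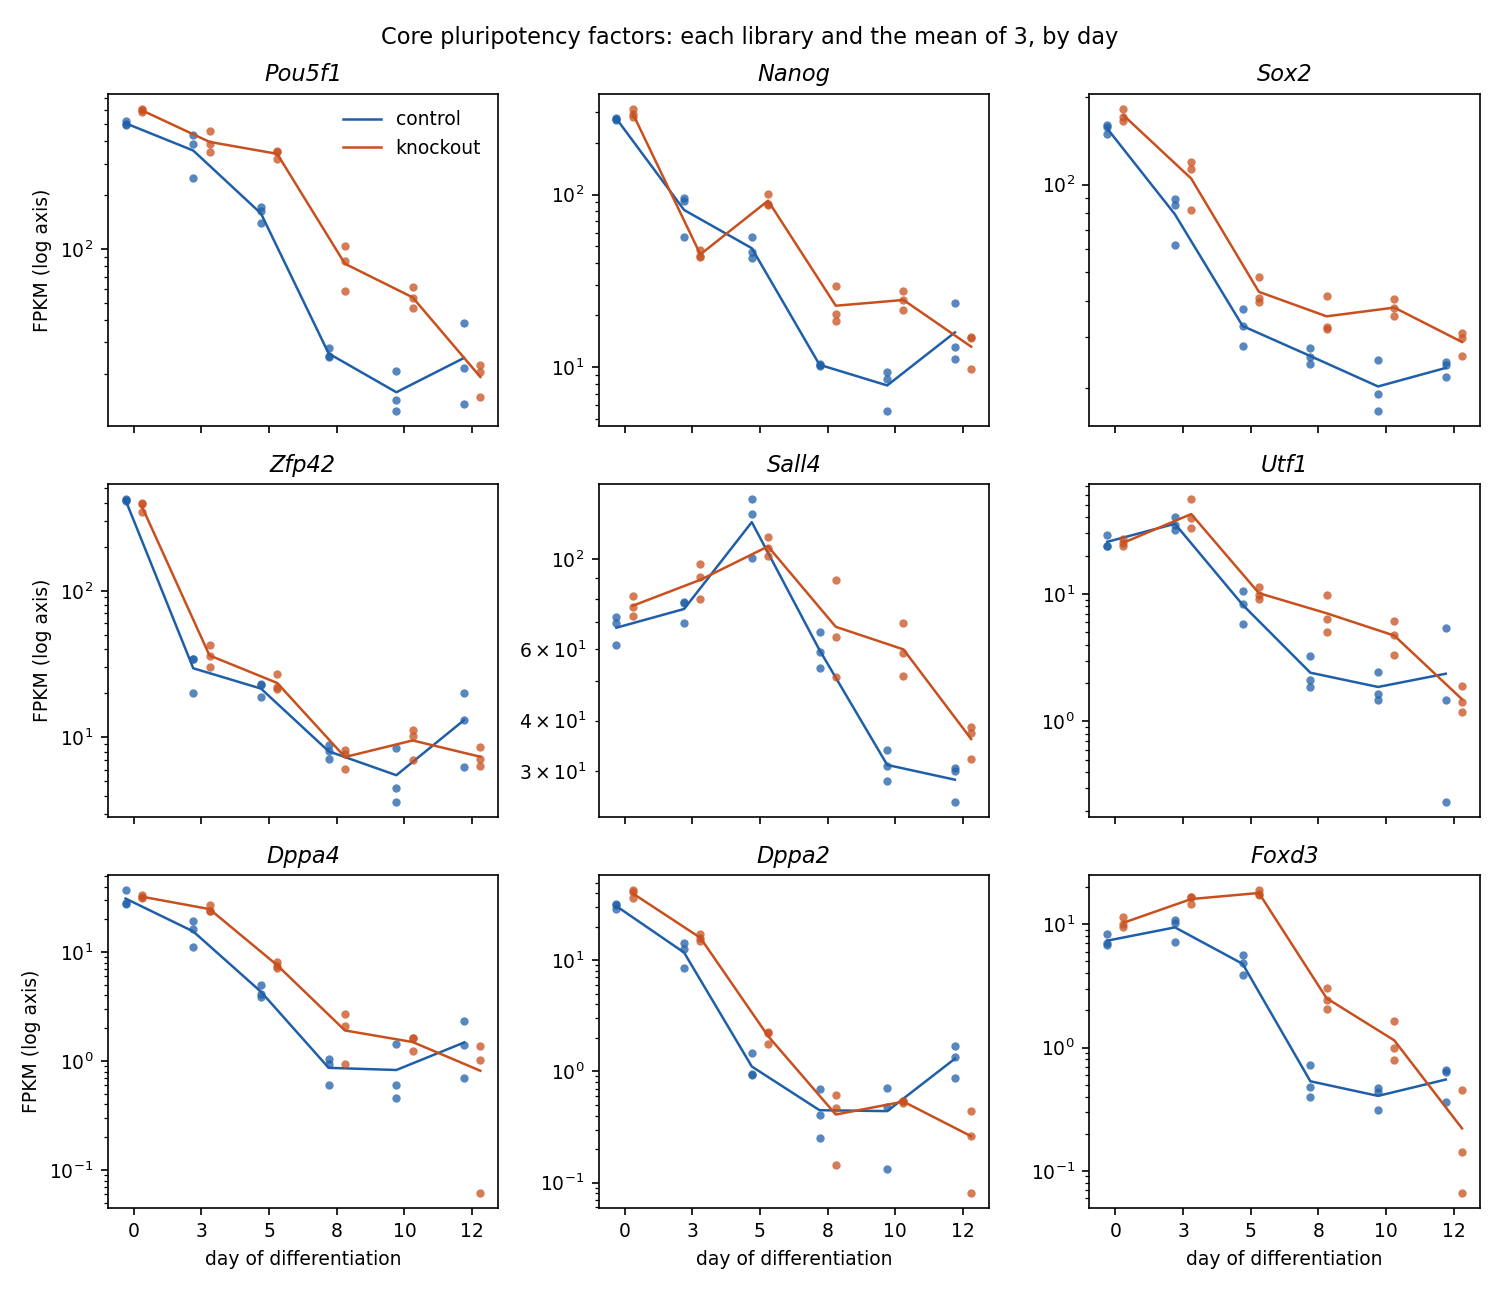
FPKM of the 9 members (log axis) in each of the 36 libraries (points) and the mean of 3 (lines), by day, control in blue and knockout in orange. At days 8 and 10 the knockout points of Pou5f1 and Nanog all lie above the control points, and at day 12 the points of the lines overlap.

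The members left the day 0 level at different speeds. The tables of the 6 days may have been normalized separately, so levels across days are given as a description. Zfp42, a zinc finger gene used as a marker of the naive state, was the quickest. In control cells it was at 7.12% ± 1.95 of its day 0 mean by day 3, and in knockout cells at 9.59% ± 1.62. No other member was below 10% at that day in either line, and after rescaling of the libraries Zfp42 was at 8.11% in control cells and at the border, 10.02%, in knockout cells. Dppa2, which with its partner Dppa4 binds chromatin and primes early embryonic genes, was the next to pass below 10%, at day 5 in both lines (3.61% ± 0.997 in control and 5.20% ± 0.659 in knockout cells).

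Other members were held or stood above day 0 before they declined. Utf1, a chromatin-associated factor restricted to pluripotent cells and the germ line, was at 139% ± 17.7 of its day 0 mean at day 3 in control cells and at 168% ± 45.9 in knockout cells. Sall4, a zinc finger partner of Oct4 and Nanog that is also used in later embryonic tissues, peaked at day 5, at 182% ± 30.0 in control and 140% ± 7.59 in knockout cells. Sall4 was never below 10% in either line, nor was Sox2, which also serves in neural progenitors and whose lowest value was 13.1% ± 2.78, in control cells at day 10. With Zfp42 and Pou5f1 lower by then, Sall4 had the highest mean of the 9 from day 8 in control cells and from day 10 in knockout cells. Its libraries overlapped those of Pou5f1 in control cells at day 12 and in knockout cells at day 10.

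The lines parted between days 5 and 10. Pou5f1 was at 31.3% ± 3.35 of its day 0 level in control cells at day 5 and at 57.0% ± 3.15 in knockout cells. At day 8 the values were 5.14% ± 0.340 and 13.8% ± 3.92. Pou5f1 was below 10% from day 8 in control cells. In knockout cells it was at 8.97% ± 1.21 at day 10, but at 10.4% after the libraries were rescaled by their median ratio, which puts the crossing at day 12. Foxd3, a forkhead repressor needed to keep stem cells undifferentiated, was at 64.9% ± 11.9 in control cells at day 5, while in knockout cells it was at 174% ± 8.54, its highest value of the course. Foxd3 was below 10% from day 8 in control cells and at day 12 in knockout cells, with or without this rescaling. Utf1 followed the same days in the deposited values, at 9.39% ± 2.91 in control cells at day 8, but after rescaling its control values were 12.7%, 10.1% and 11.8% at days 8, 10 and 12 and did not go below 10%.

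Over the 9 members, the median share left was 21.04% ± 3.00 in control and 31.1% ± 2.43 in knockout cells at day 5. A median of 9 is the value of a single member, here Sox2 in control and Nanog in knockout cells. At day 8 it was 5.14% ± 0.340 and 13.8% ± 3.92, which in both lines is the Pou5f1 value given above. At day 10 it was 3.48% ± 1.08 and 8.96% ± 1.23. At day 12 the medians were 5.37% ± 2.89 and 3.71% ± 0.611, so the knockout cells no longer stood above the controls. The wide control value at day 12 comes with uneven libraries. Control replicate 2 was the highest of its group in 8 of the 9 members at that day and control replicate 3 the lowest in 8, with summed levels of the 9 of 147 and 85.3 FPKM.

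**Figure D2:**
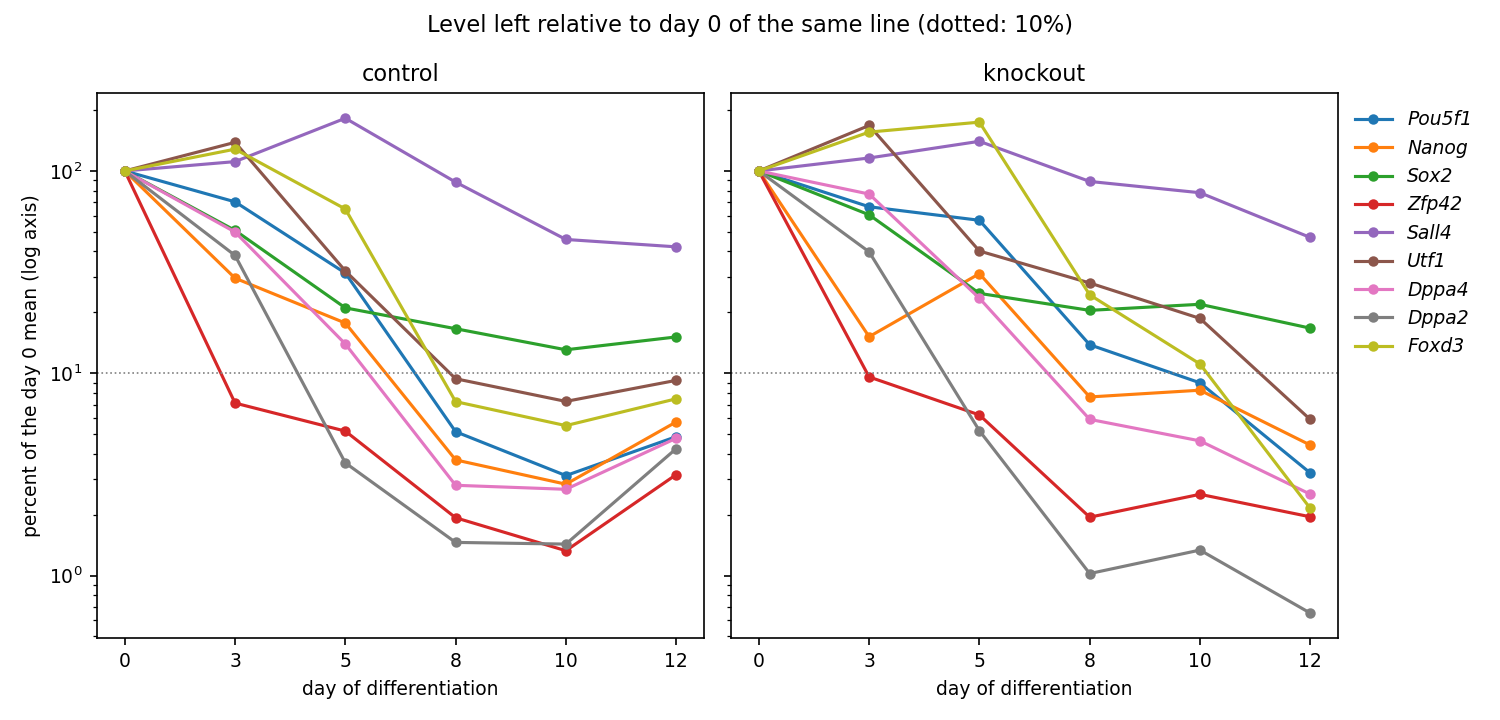
Mean level at each day as a percent of the day 0 mean of the same line (log axis), 1 line per member, control on the left and knockout on the right. Zfp42 is below the dotted 10% line from day 3 in both panels, and Foxd3 at day 5 is at 64.9% in the control panel and 174% in the knockout panel.

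The comparison of the lines on the same day asks which members differed without LncCPR. It used limma on log2(FPKM + 1), over all genes with a mean of at least 1 FPKM at that day, with Benjamini-Hochberg adjustment and a threshold of 0.05. Higher and lower mean knockout against control, and a log2 difference on this scale understates the change of low genes. At day 0, 3 of 9 members were higher and none lower, where 6.49% of all genes tested were higher and 8.03% lower. At day 3 none of 9 passed, with 1.09% of all genes higher and 0.668% lower, and 3 members had an unadjusted p under 0.05. At day 5, 5 of 9 members were higher and none lower, against 7.07% of all genes higher and 3.32% lower. At day 8, 4 of the 8 members tested were higher and none lower, against 1.28% of all genes higher and 2% lower. At day 10, 6 of the 7 tested were higher and none lower, against 15% of all genes higher and 5.12% lower. At day 12 none of 7 passed, with 3.22% of all genes higher and 3.48% lower, and 2 members had an unadjusted p under 0.05. Dppa2 at days 8, 10 and 12 and Foxd3 at days 10 and 12 fell short of 1 FPKM and were not tested. Foxd3 at day 8 and Dppa4 at days 8 and 10 had control means below 1 FPKM and were tested only through their knockout libraries.

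The members' differences stood above the general shift at days 5 to 10. The median log2 difference of the tested members was 0.55 at day 5, 0.82 at day 8 and 0.92 at day 10, where the median of all genes was 0.13, 0.09 and 0.17. Rescaling the libraries by their median ratio brought the medians of all genes close to 0 and changed the balance of calls. After it 5.09% of all genes were higher and 7.01% lower at day 5, where 4 members were higher and 1, Sall4, lower. For day 8 the shares became 1.79% and 4.04%, with 3 members higher, and for day 10 they became 8.52% and 12.4%, with 5 members higher. The day 3 shares were 1.8% and 2.56%, with 2 members higher and 1 lower, and those of day 12 were 2.24% and 5.31%, with no member called. With no filter on low values, which adds genes near 0 to the adjustment, no member passed at days 0 and 8. The adjusted p at day 8 was then 0.0517 for Pou5f1, 0.0785 for Foxd3, 0.0868 for Nanog and 0.154 for Utf1, and at day 10 it was 0.0513 for Sox2 and 0.0943 for Utf1.

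A count that uses no test gives the tested members whose 3 knockout libraries all lay on the same side of the 3 controls. At day 0, 6 members were all higher and 1 all lower, against 16.8% and 19.7% of all genes. At day 3 it was 4 and 1, against 14.5% and 3.02%, and the member below was Nanog. At days 5, 8 and 10 no member was all lower, against 7.83%, 8.48% and 9.47% of all genes, and 6 of 9, 5 of 8 and 5 of 7 members were all higher, against 26.1%, 14.2% and 30.9%. At day 12, 2 of 7 were all higher and none all lower, against 18.2% and 11.8%. Among members too low for the test, Foxd3 was all higher at day 10 and Dppa2 all lower at day 12.

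**Figure D3:**
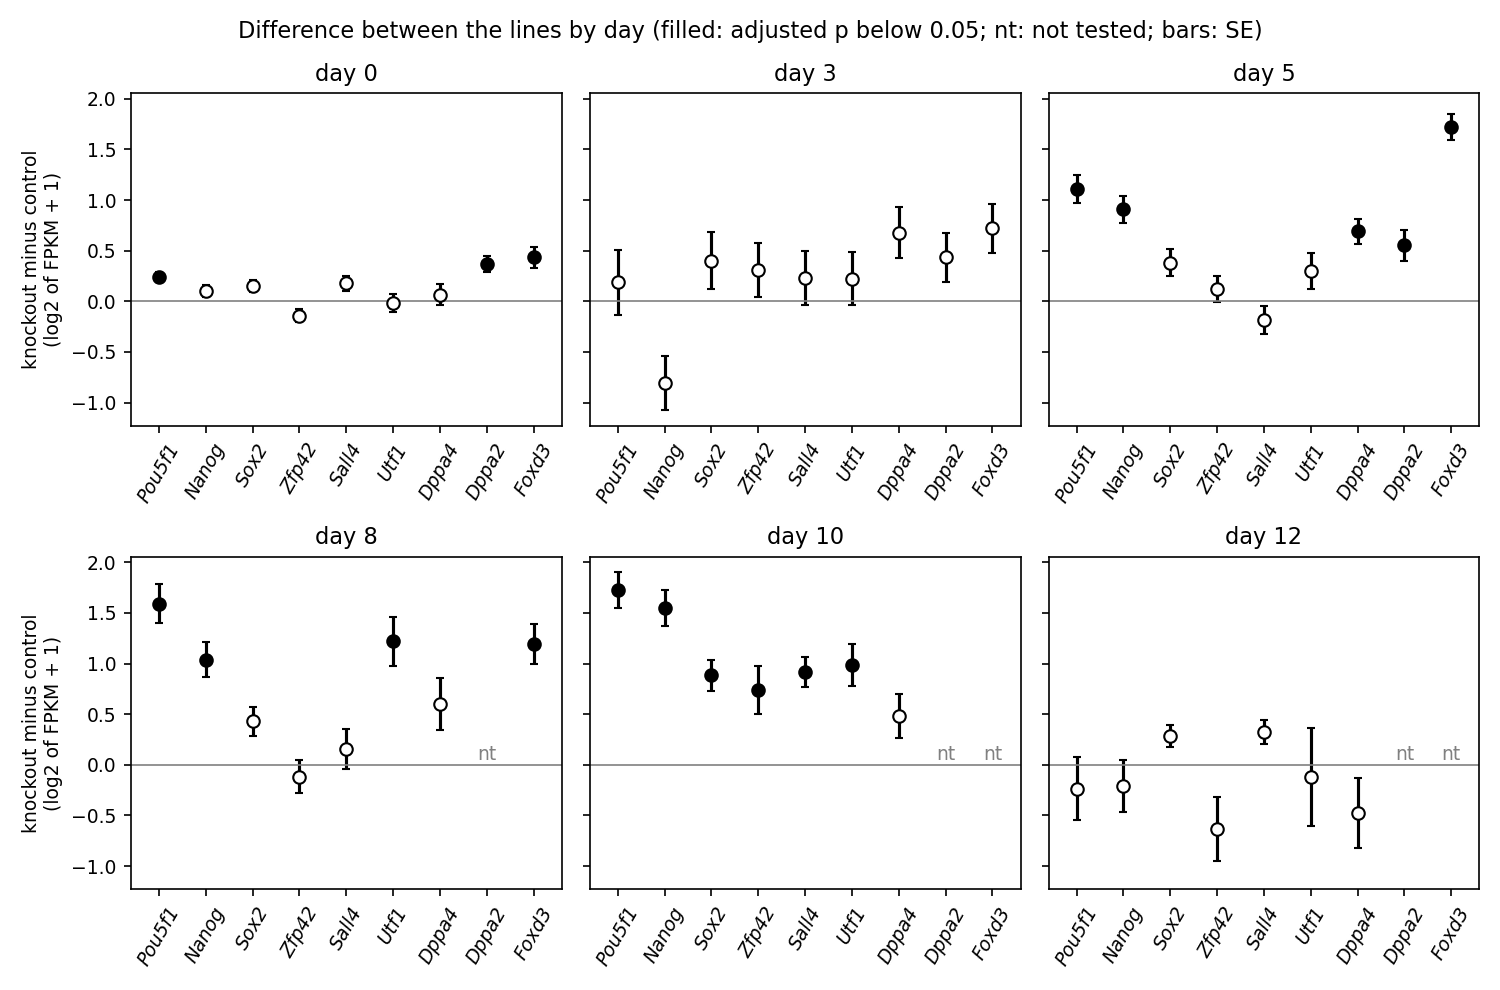
Knockout minus control on the log2(FPKM + 1) scale for each member, 1 panel per day, with SE bars. Filled points had an adjusted p below 0.05 and nt marks a member not tested. All filled points lie above 0, with the largest at day 5 for Foxd3 and at day 10 for Pou5f1, and none is filled at days 3 and 12.

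Pou5f1 encodes Oct4, the POU factor without which the pluripotent state is not kept. At day 5 it was at 139, 171 and 164 FPKM in the control libraries and at 348, 320 and 355 in the knockout libraries. All 3 knockout libraries were higher than every control library. The log2 difference was 1.11 (SE 0.14, adjusted p 0.000505). At day 8 the control libraries read 27.9, 24.7 and 25.3 FPKM and the knockout libraries 85.5, 104.5 and 57.9. The knockout libraries were again all higher, and more uneven, with a log2 difference of 1.59 (SE 0.20, adjusted p 0.00176). At day 10 the levels were 20.8, 12.4 and 14.2 FPKM against 46.5, 61.0 and 53.3. The lines did not overlap, and the means of 15.8 ± 4.42 and 53.6 ± 7.26 FPKM gave the largest Pou5f1 difference of the course, at 1.73 (SE 0.18, adjusted p 4.43e-05). At day 12 the control libraries spread from 13.5 to 38.7 FPKM and enclosed the knockout libraries at 14.8 to 22.3. The difference of -0.24 (SE 0.31, adjusted p 0.691) turned to 0.14 without control replicate 2, the highest library.

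At day 0, Pou5f1 was modestly higher in the knockout cells. The control libraries held 503, 520 and 493 FPKM and the knockout libraries 610, 598 and 585. The lines did not overlap, and the log2 difference of 0.24 (SE 0.05) had an adjusted p of 0.0224. Without control replicate 2 or 3, or knockout replicate 1 or 2, the adjusted p was 0.0592, 0.0736, 0.0684 and 0.0598. In 1 fit over all 36 libraries it was 0.700, and no call of day 0 was left. At day 3 the libraries overlapped, at 249.2 to 432 FPKM in control and 348 to 457 in knockout cells, and the difference of 0.19 (adjusted p 0.857) became -0.05 without control replicate 1. That library was the lowest of its group in 7 of the 9 members, and its median-ratio size factor was 0.715.

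Nanog encodes the homeodomain factor that stabilises self-renewal and is switched off in the epiblast around implantation. Day 3 was the 1 time at which its libraries lay lower in the knockout. The control libraries read 56.6, 91.7 and 95.8 FPKM and the knockout libraries 43.3, 44.0 and 47.5. The knockout libraries were close together and all below the controls, but the difference of -0.81 (SE 0.27) had an adjusted p of 0.159. It passed at -1.05 (adjusted p 0.0039) without the low control replicate 1, and at -0.96 (adjusted p 0.00316) with libraries rescaled. Nanog lies on chromosome 6 of GRCm38, whose genes had a median log2 difference of -0.10 at day 3 against 0.16 for other chromosomes, and after centring each chromosome the Nanog difference was -0.69 (adjusted p 0.0151).

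From day 5 Nanog stood on the other side. Its levels were 43.0, 56.8 and 46.6 FPKM in control and 87.4, 88.5 and 100.4 in knockout libraries at that day. All knockout libraries were above all controls, with a log2 difference of 0.91 (SE 0.13, adjusted p 0.00157). At day 8 the means were 10.3 ± 0.145 and 22.6 ± 5.86 FPKM, a difference of 1.04 (SE 0.17, adjusted p 0.0103) that had an adjusted p of 0.0522 without control replicate 2. At day 10 the control libraries read 8.51, 5.53 and 9.36 FPKM and the knockout libraries 21.2, 27.6 and 24.5. The lines were far apart, at 1.55 (SE 0.18, adjusted p 9.87e-05). At day 12 they overlapped, with means of 15.8 ± 6.72 and 13.1 ± 2.92 FPKM and a difference of -0.21 (adjusted p 0.667), which was 0.10 without control replicate 2. Nanog at day 0 was 0.10 higher (adjusted p 0.259), and 0.36 higher (adjusted p 0.00827) once chromosome 6, with a median of -0.25 at that day, was centred.

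Sox2, the HMG-box partner of Oct4, passed the test at 1 day. At day 10 it was at 25.1, 16.7 and 19.1 FPKM in control libraries and at 40.4, 35.4 and 37.8 in knockout libraries. There was no overlap, and the log2 difference was 0.88 (SE 0.15, adjusted p 0.00225). The Sox2 libraries of the knockout were also all above the controls at days 0, 5, 8 and 12, by 0.15, 0.38, 0.43 and 0.28, with adjusted p values from 0.0942 to 0.154 that missed the threshold. Sox2 lies inside the noncoding gene Sox2ot on the same strand, so some reads may belong to either gene. Pou5f1 and Sall4 overlap annotated genes on the opposite strand, Gm19553 and Gm14261, and the latter reached at most 0.413 FPKM.

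Zfp42 behaved unlike Pou5f1 and Nanog between the lines. At day 5 its means were 21.5 ± 2.30 and 23.5 ± 3.01 FPKM, and at day 8 they were 8.03 ± 0.927 and 7.34 ± 1.15. Both pairs overlapped, with differences of 0.12 (SE 0.13, adjusted p 0.570), which was -0.02 after rescaling, and -0.12 (SE 0.16, adjusted p 0.752). At day 10 the control libraries read 8.42, 3.62 and 4.50 FPKM and the knockout libraries 7.01, 10.3 and 11.3. The highest control overlapped the lowest knockout library. The log2 difference of 0.74 (SE 0.24, adjusted p 0.0436) passed, but the adjusted p was 0.144 without control replicate 2, 0.190 without control replicate 3, 0.0739 without knockout replicate 2, 0.0893 without knockout replicate 3 and 0.195 with rescaled libraries, and 4 of 13 alternatives kept the call. At day 12 Zfp42 was at 13.1, 19.96 and 6.27 FPKM in control and 8.53, 7.16 and 6.42 in knockout libraries. The difference of -0.63 (adjusted p 0.262) was -1.05 (adjusted p 0.0231) without control replicate 3. At day 0 the Zfp42 libraries of the knockout were all below the controls, at -0.14 (adjusted p 0.176). The gene lies on chromosome 8 of GRCm38, whose median was -0.25 at that day, and centring made the difference 0.11.

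Sall4 differed late. At day 10 it was at 28.4, 33.9 and 31.0 FPKM in control libraries and at 58.7, 51.5 and 69.7 in knockout libraries. The groups were clearly separate, with a log2 difference of 0.92 (SE 0.14, adjusted p 0.00111). At day 8 they overlapped, with means of 59.7 ± 6.14 and 68.2 ± 19.1 FPKM and a difference of 0.16 (adjusted p 0.722), which was -0.05 without knockout replicate 2. At day 5 the peak was not higher in the knockout, at 108 ± 5.83 FPKM against 124 ± 20.4 in control cells. That difference of -0.19 (adjusted p 0.419) was -0.33 (adjusted p 0.0417) after rescaling, the 1 lower call among the 9 members at that day. At day 12 the knockout libraries were all higher, by 0.32 (adjusted p 0.135).

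Utf1 was higher in the knockout at days 8 and 10. Its control libraries at day 8 read 1.86, 2.11 and 3.27 FPKM and its knockout libraries 9.75, 5.02 and 6.43. The lines did not overlap, and the log2 difference was 1.22 (SE 0.24, adjusted p 0.0238). The adjusted p was 0.09 without control replicate 1, 0.101 without control replicate 2, 0.0825 without knockout replicate 1 and 0.053 after rescaling. At day 10 the means were 1.87 ± 0.523 and 4.72 ± 1.40 FPKM, with a difference of 0.98 (SE 0.21, adjusted p 0.00614). At day 12 the control libraries ranged from 0.234 to 5.39 FPKM around the knockout libraries, and the difference of -0.12 (adjusted p 0.905) was 0.50 without control replicate 2.

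Dppa4 and Dppa2 are neighbours on chromosome 16 of GRCm38, with no annotated gene between them, and their proteins act as a pair. Dppa4 at day 5 was at 3.90, 4.95 and 4.13 FPKM in control and 7.45, 7.22 and 8.09 in knockout libraries. All knockout libraries were higher, by a log2 difference of 0.69 (SE 0.12, adjusted p 0.00507, and 0.0914 in 1 fit over all days). At day 3 they were also all higher, by 0.68 (adjusted p 0.225, and 0.0154 after rescaling), and at days 8 and 10 they overlapped, with differences of 0.60 (adjusted p 0.258) and 0.48 (adjusted p 0.132). The day 10 value was 0.71 (adjusted p 0.0378) without control replicate 1.

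Dppa2 was higher at days 0 and 5. At day 0 it was at 29.0, 31.8 and 31.3 FPKM in control and 42.7, 41.3 and 36.03 in knockout libraries. They did not overlap, and the log2 difference was 0.37 (SE 0.08, adjusted p 0.0214). Leaving out any library other than knockout replicate 3 gave an adjusted p from 0.0532 to 0.065. At day 5 the levels were low, at 1.11 ± 0.306 and 2.08 ± 0.264 FPKM, and the difference of 0.55 (adjusted p 0.0432) was past the threshold only narrowly. The adjusted p was 0.132 without control replicate 1, 0.116 without control replicate 2, 0.101 without knockout replicate 2, 0.118 without knockout replicate 3 and 0.0633 after rescaling. At day 12 Dppa2 was at 1.34, 1.69 and 0.881 FPKM in control and 0.438, 0.081 and 0.264 in knockout libraries. Here the knockout libraries were all lower, opposite to days 0 and 5, and the gene was too low for the test of that day.

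Foxd3 had the largest difference of any member at day 5. It was at 3.86, 4.86 and 5.60 FPKM in control libraries and at 18.9, 17.2 and 17.7 in knockout libraries. The lowest knockout library was far above the highest control, and the log2 difference was 1.72 (SE 0.13, adjusted p 1.77e-05), with means in a ratio of 3.76. At day 8 the levels were 0.718, 0.399 and 0.481 FPKM against 2.43, 3.05 and 2.05. The separation held at this lower level, with a log2 difference of 1.19 (SE 0.20, adjusted p 0.00974, and 0.0525 without control replicate 2). Its control mean was 0.533 FPKM, so the gene was tested at day 8 only because the knockout libraries were high. The means of FPKM were in a ratio of 4.71, larger than at day 5. The log2 difference was smaller than at day 5, as the 1 FPKM added before the log2 weighs more on such low values. At day 10, below the level tested, the means were 0.405 ± 0.0817 and 1.14 ± 0.440 FPKM and the libraries did not overlap. At day 12 they overlapped, at 0.550 ± 0.164 and 0.221 ± 0.205 FPKM. At day 0 Foxd3 was at 6.99, 6.77 and 8.32 FPKM in control and 11.4, 9.47 and 9.96 in knockout libraries. The lines were apart by 0.43 (SE 0.11, adjusted p 0.034), and leaving out any library other than control replicate 3 gave an adjusted p from 0.0553 to 0.102. At day 3 all knockout libraries were higher, by 0.72 (adjusted p 0.146, and 0.0158 after rescaling).

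Whether the difference between the lines depended on the day was tested itself, with a limma F test over the 36 libraries. It passed for 5 of the 9 members, against 17.1% of 13022 genes with a mean of at least 1 FPKM over the 36 libraries. These were Foxd3 (adjusted p 7.32e-07), Nanog (2.63e-06), Pou5f1 (0.000105), Dppa2 (0.000528) and Sall4 (0.00684). It did not pass for Dppa4 (0.0729), Zfp42 (0.084), Sox2 (0.131) and Utf1 (0.131). Without the libraries numbered 2 the adjusted p of Dppa2 was 0.179, and that of Sall4 was 0.0831 and 0.206 without those numbered 1 and 3.

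The difference at a later day was set against that at day 0, and this change passed in 1.72%, 5.59%, 7.09%, 12.7% and 6.51% of all genes, in the order of the later days. That of Foxd3 was larger by 1.29 at day 5 (adjusted p 0.000266) and by 0.76 at day 8 (0.0326), and changed by -0.79 at day 12 (0.0279). Pou5f1 differed from its day 0 difference by 1.35 at day 8 (adjusted p 0.0121) and 1.48 at day 10 (0.00464). Both genes were thus further apart in the middle of the course than in undifferentiated cells. At day 10 the change was 1.45 for Nanog (0.00169), 0.74 for Sall4 (0.0191) and 0.73 for Sox2 (0.0202), and at day 12 it was -1.23 for Dppa2 (0.00174). The day 12 changes of Foxd3 and Dppa2 rest on levels too low for the test of that day. The means in control and knockout cells were 0.550 and 0.221 FPKM for Foxd3 and 1.30 and 0.261 for Dppa2. Both genes entered here through their levels at earlier days. Only the changes of Foxd3 at day 5 and Nanog at day 10 kept an adjusted p below 0.05 without each of the 3 replicate numbers, at most 0.0259 and 0.0345. Without the libraries numbered 2 it was 0.468 for Foxd3 at day 8 and 0.368 at day 12, 0.17 and 0.0802 for Pou5f1 at days 8 and 10, 0.257 for Sox2, 0.0957 for Sall4 and 0.187 for Dppa2. Chromosome 6, which holds Nanog, had a median log2 difference of -0.25 at day 0 and 0.16 at day 10. With each chromosome centred, the Nanog change at day 10 was smaller, at 1.04 (adjusted p 0.0121). The Sall4 change had an adjusted p of 0.0509 after this centring and 0.0717 after rescaling. For Foxd3 at day 8 the adjusted p was 0.0543 with no filter. Without the libraries numbered 1 or 3 it was 0.114 or 0.109 for Foxd3 at day 12 and 0.106 or 0.164 for Sall4. It was also 0.0941 for Pou5f1 at day 8 without number 1, and without number 3 it was 0.199 for Foxd3 at day 8, 0.0534 for Pou5f1 at day 10 and 0.196 for Sox2.

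The balance among the members was read as each level in percent of Pou5f1 in the same library, a ratio from which the scaling of a library drops out. Zfp42 stood at 82.3% ± 1.37 of Pou5f1 in control and 63.2% ± 3.52 in knockout cells at day 0, with no overlap. At day 3 it was at 8.31% ± 0.493 and 9.08% ± 0.363, with overlap. At day 5 it was 13.6% ± 0.210 against 6.90% ± 0.843, and at day 8 it was 31.1% ± 5.17 against 9.68% ± 4.26, again without overlap. Pou5f1 itself was higher in knockout cells at days 0, 5, 8 and 10. At day 0 the genes of chromosome 8, which holds Zfp42, also had a median log2 difference of -0.25. A gene with no difference between the lines therefore also has a lower ratio in knockout cells at those days. The share of all genes with such a ratio was not counted, so the lower ratios largely restate the Pou5f1 difference, which Zfp42 did not share at days 5 and 8.

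Sall4 and Sox2 overtook Pou5f1 earlier in control cells, where Pou5f1 was the lower of the lines at days 5, 8 and 10. Sall4 was at 78.0% ± 6.95 of Pou5f1 in control and 31.7% ± 3.52 in knockout cells at day 5, and at 230% ± 9.93 and 82.9% ± 6.71 at day 8. The lines did not overlap at either day. Sox2 was level with Pou5f1 in control cells at day 8, at 99.4% ± 3.95, where the knockout cells stood at 44.4% ± 10.1. At day 10 it was at 130% ± 8.15 and 72.0% ± 14.5, still apart, and at day 12 the lines overlapped, at 113% ± 49.1 and 153% ± 19.3.

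Foxd3 moved the other way. It was at 2.69% ± 0.200 of Pou5f1 in control and 4.05% ± 0.351 in knockout cells at day 3, and at 3.01% ± 0.355 and 5.26% ± 0.233 at day 5. At day 8 it was at 2.03% ± 0.489 and 3.10% ± 0.383. The knockout libraries were above the controls at all 3 days, so Foxd3 was higher even relative to a persisting Pou5f1. Nanog was lower relative to Pou5f1 in knockout cells at days 0, 3, 5 and 8, at 22.9% ± 0.792 and 11.5% ± 2.03 at day 3 and at 39.7% ± 2.48 and 27.8% ± 4.12 at day 8. The genes of chromosome 6, which holds Nanog, had a median log2 difference of -0.25 at day 0 and -0.10 at day 3. The ratios were not centred for this. With 3 libraries against 3 an exact permutation test of such a ratio cannot give a two-sided p below 0.1, so none is given.

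**Figure D4:**
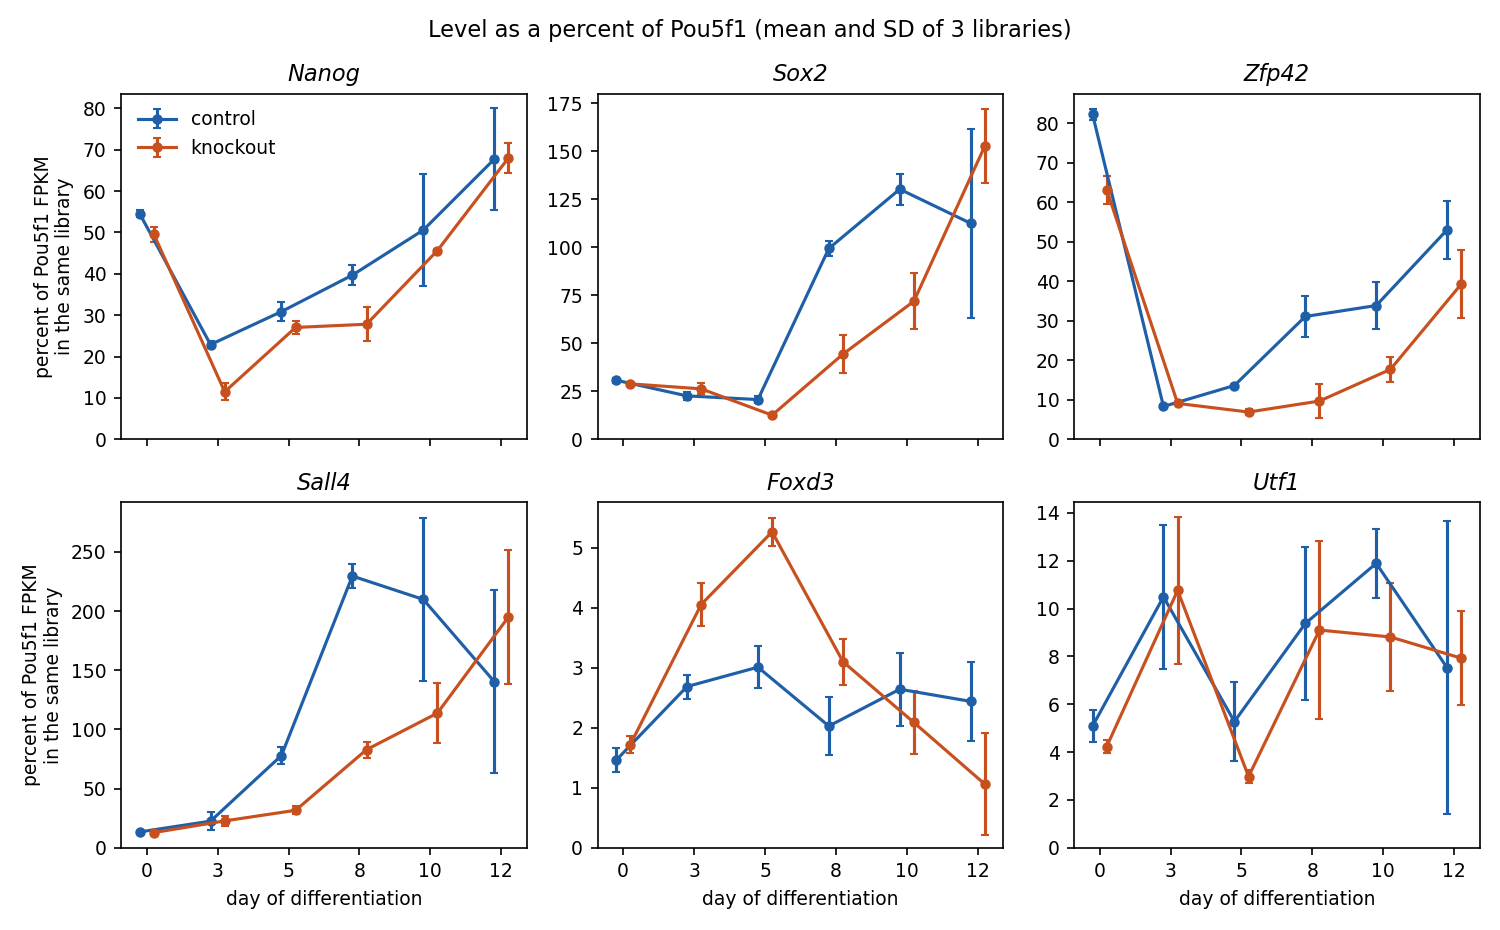
Level of 6 members as a percent of Pou5f1 FPKM in the same library, mean and SD of 3 libraries by day, control in blue and knockout in orange. At day 8 Sall4 is at 230% in control and 82.9% in knockout cells, and Foxd3 is higher in knockout cells at days 3, 5 and 8.

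Genes that share the members' network were counted from lists. Of 26 other stem cell network and target genes, 14 of the 24 tested were higher and none lower at day 10, with a median log2 difference of 0.61 beside 0.17 for all genes, of which 15% were higher and 5.12% lower. They included Tdgf1, a Nodal co-receptor of the early embryo, at 12.4 ± 2.98 FPKM in control and 44.0 ± 8.72 in knockout cells (adjusted p 5.09e-05), and Lin28a, which blocks let-7 maturation, at 47.9 ± 9.19 and 104 ± 8.86 (adjusted p 0.000442). Of 12 formative and primed epiblast genes, 4 of the 11 tested were higher and 3 lower at day 5, against 7.07% and 3.32% of all genes. At day 8, 6 of the 11 tested were higher and none lower, against 1.28% of all genes higher. At day 10, 7 of the 10 tested were higher and none lower, against 15% higher. Of 15 naive and ground state factors, none of the 11 tested was higher and 1 was lower at day 5, where 7.07% of all genes were higher and 3.32% lower. At day 8 none of the 12 tested was called, and at day 10, 3 of 12 were higher and 1 lower, beside the 15% and 5.12% above. At day 0, 6 of 14 were higher and 2 lower, against 6.49% and 8.03% of all genes. The median log2 difference of this list was 0.17. Its summed levels were 461 to 476 FPKM in control and 557 to 564 in knockout libraries. Against that direction, Dppa3, a maternal factor of the naive state, was 1 of the 2 lower, at 11.4 ± 1.49 against 1.23 ± 0.172 FPKM (adjusted p 8.1e-05). Esrrb of that list was listed at 0 in all 6 libraries of day 0 but not in all 6 at any later day, so it adds nothing to these sums. Whether the 0 means no transcript or an entry not quantified at that day was not tested.

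Genes of the tissues that arise were read beside the members. Of 11 cardiomyocyte genes, 9 of the 10 tested were lower in knockout cells at day 8 and 10 of 10 at day 10, none higher, where 2% and 5.12% of all genes were lower. Their summed levels at day 10 were 1226 to 1292 FPKM in control and 273 to 427 in knockout libraries. Of 16 primitive streak and cardiac mesoderm genes, 7 of the 14 tested were lower and 2 higher at day 5, against 3.32% of all genes lower and 7.07% higher. Their summed levels at day 5 overlapped, at 256 to 328 FPKM in control and 290 to 312 in knockout libraries. Pou5f1, Nanog and Foxd3 were higher at that day. Kdr, a receptor on cardiac and vascular progenitors, was at 19.4 ± 2.33 against 0.927 ± 0.0757 FPKM (adjusted p 9.88e-08), and Mesp1, a master factor of cardiac mesoderm, at 16.2 ± 2.23 against 1.32 ± 0.506 (adjusted p 1.95e-06). Kdr and Mesp1 were picked for the size of their change and do not stand for the list, whose summed levels overlapped. At day 10, 4 of the 10 streak and mesoderm genes tested were lower and 4 higher. Of 9 endoderm genes, 5 of 9 were lower and none higher at day 10. The shares of all genes at that day were 5.12% lower and 15% higher.

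Some members are also used outside undifferentiated cells, so markers of those cell types were read at day 10. Of 7 germ cell markers 3 were tested and none was called, with summed levels of 16.8 to 23.6 FPKM in control and 22.5 to 25.9 in knockout libraries. Of 9 neural progenitor markers, which share Sox2, 4 were tested and none was called, with sums of 50.9 to 60.18 and 60.23 to 65.3 FPKM. Their sums were also higher in knockout libraries at day 5, at 29.5 to 37.1 against 46.2 to 59.0 FPKM. At day 8 they were 48.1 to 56.8 against 61.5 to 65.1 FPKM. At day 5, 1 of 3 tested was higher, and at day 8, 1 of 5, against 7.07% and 1.28% of all genes. At day 0, 3 of 3 tested were lower, against 8.03%. Of 6 neural crest markers, which share Foxd3, 1 of the 3 tested was lower and none higher, with sums of 23.1 to 30.9 and 19.3 to 21.4 FPKM. None of 7 trophoblast markers was called at day 10, with 4 tested and sums of 348 to 494 and 464 to 521 FPKM. None of these markers with an entry was listed at 0 in all 6 libraries of day 10. The part of these cells in the members' levels was not tested.

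The genes most like each member over the course were those with the highest Pearson r over the 12 group means of log2(FPKM + 1), among 10559 genes. The points share their libraries and the common decline over days, so r is a description. Zfp42 was closest to Fbxo15, an F-box gene of undifferentiated cells, with r of 0.996. Fbxo15 was at 137 and 133 FPKM in control and knockout cells at day 0 and at 7.52 and 8.74 at day 5, an early loss in both lines like that of Zfp42. Sall4 was closest to its paralogue Sall1, with r of 0.974, which also stood higher at day 5 than at day 0, at 37.8 against 25.1 FPKM in control cells. Sox2 had Pcolce2 (0.992) and Tet1 (0.988), an enzyme that oxidises methylated DNA, and Utf1 had Utp20 (0.994) and Slc7a3 (0.987). Pou5f1 had Gm5560 (0.992) and Nat10 (0.990), Nanog had Gins3 (0.987), Dppa2 had Bin2 (0.995), Dppa4 had Gm6871 (0.996), and Foxd3 had Prps1l3 (0.981) and Phf15 (0.981).

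Among the members themselves, the same measure over 12 group means was highest for Dppa4 and Dppa2 and for Sox2 and Dppa2, both at 0.963, and for Pou5f1 and Foxd3 at 0.957. It was lowest for Dppa2 and Sall4, at 0.386, and for Zfp42 and Sall4, at 0.412. The member lost first and the member kept longest thus had among the least similar courses of the 9.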

How the data were processed

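Total RNA libraries were made with a kit that removes ribosomal RNA, per the labels' protocols. The authors deposited 1 table of FPKM values per day. TopHat, Cufflinks and the mm9 build are named, without versions, per the submitters' processing notes. Chromosomes come from GENCODE M21 on GRCm38, matched by gene identifier for 32616 of 37561 entries. Each day was tested with limma 3.58.1 in R 4.3.3 (trend, two-sided) on log2(FPKM + 1), for genes with a mean of at least 1 FPKM, Benjamini-Hochberg adjusted over all genes at a threshold of 0.05. Scripts were tested on simulated data. Members, gene lists and naming rules were chosen with earlier results of these data known. All members are named. From a list, genes named are among the 3 largest changes past the threshold at the day with the most calls, and for likeness among the top 3 genes with a group mean of at least 5 FPKM. Of 125 list genes, Sox1 had no entry and 7 were matched by identifier. The alternatives were a pseudocount of 0.1, no filter, libraries rescaled by the median ratio, centring by chromosome, no trend, a replicate block, 1 fit over 36 libraries and leaving out each replicate. FPKM keeps no read depth, so no counting interval is given.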

Additional observations from a re-analysis of the deposited data

Results flagged for a closer look

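The difference between knockout and control cells changed with the day for 5 members, by a limma F test over the 36 libraries with Benjamini-Hochberg adjustment over all genes. The adjusted p was 0.000105 for Pou5f1, whose libraries were higher in the knockout by 1.73 on the log2 scale at day 10 and overlapped at day 12. It was 2.63e-06 for Nanog, whose 3 knockout libraries were all below the controls at day 3 and all above them at days 5, 8 and 10. It was 0.00684 for Sall4, at -0.19 at day 5 and 0.92 at day 10. It was 0.000528 for Dppa2, whose knockout libraries were all above the controls at days 0, 3 and 5 and all below them at day 12. The Dppa2 means at day 12 were 1.30 FPKM in control and 0.261 in knockout cells, too low for the test of that day. Without the libraries numbered 2 the F test of Dppa2 had an adjusted p of 0.179. For Foxd3 the adjusted p was 7.32e-07, with differences of 0.43 at day 0 and 1.72 at day 5.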

How the results depend on the processing

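Of 18 calls of a member at a day, 6 passed in all 13 alternatives: Pou5f1, Nanog and Foxd3 at day 5, and Pou5f1, Nanog and Sall4 at day 10. No call reversed. Of 31 differences that missed the threshold, 7 passed in some alternative. With no filter, 0 members were called at day 0 and at day 8, and 3 at day 10. The count at day 3 was 3 after rescaling, 3 after centring by chromosome and 2 in 1 fit over 36 libraries, which gave 0 at day 0. Leaving out 1 replicate gave 0 to 2 members at day 0 and 4 to 5 at day 5. The range was 0 to 1 at day 3, with Nanog called without control replicate 1, and 1 to 4 at day 8, with 1 called without control replicate 2. It was 5 to 7 at day 10 and 0 to 1 at day 12, with Zfp42 called without control replicate 3. The F test kept 4 to 6 members in all alternatives. With all 36 libraries rescaled, the median share left was 6.85% in control cells at day 8, and 4.93% and 10.4% in control and knockout cells at day 10.

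Uncalled differences that turned under another setting were Zfp42 at day 0 centred (0.115) and at day 5 rescaled (-0.0169), Pou5f1 at day 3 centred (-0.00818), and Utf1 at day 12 with a pseudocount of 0.1 (0.137). Leaving out 1 replicate turned others. Their ranges were -0.0675 to 0.0777 for Utf1 and -0.00222 to 0.197 for Dppa4 at day 0, -0.0473 to 0.348 for Pou5f1 at day 3 and -0.0508 to 0.342 for Sall4 at day 8. At day 12 they were -0.584 to 0.144 for Pou5f1, -0.416 to 0.0975 for Nanog and -0.685 to 0.501 for Utf1, each positive without control replicate 2. The cause was not tested.

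Replicate numbers are shared between the lines, but same-numbered libraries did not deviate together: r was from -0.12 to 0.27, above 0.1 in 5 of 18 pairs, and 12 of 36 libraries correlated best with their own number. With the replicate number as a block, no member (0) passed at day 0, while days 5, 8 and 10 had 5, 4 and 5 and the F test had 6. With it the change of the Foxd3 difference against day 0 had an adjusted p of 0.0682 at day 8 and 0.0628 at day 12. FPKM without read counts limits what can be said of members under 1 FPKM.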
